A study of Neogale vison with 6 samples.

Results

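Caveolins, cavins and flotillins are proteins that shape cholesterol-rich patches of the plasma membrane. The genes of interest were the caveolins CAV1 and CAV2, the cavins CAVIN1, CAVIN2 and CAVIN3, the flotillins FLOT1 and FLOT2, and EHD2. They were found by gene symbol in the count table. All 8 symbols were present, each once and in its current spelling, among 24526 genes. Mv1Lu, a cell line from mink lung described as epithelial, was left untreated (control, 3 libraries) or subjected to cholesterol depletion (CD, 3 libraries). CD lasted 16 h, with 50 μM of the statin lovastatin and 50 μM mevalonate in medium whose serum (10%, LPDS) had been freed of lipoproteins. Lovastatin inhibits HMG-CoA reductase, the enzyme that makes mevalonate. The added mevalonate is meant to keep protein prenylation going while sterol synthesis is reduced. The control is plain untreated cells, so that the effects of statin, mevalonate and LPDS cannot be told apart. The cells are of 1 established line, and the labels do not say whether the replicates are separate cultures, so p-values measure the spread between these libraries.

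Caveolae are small flask-shaped pits of the plasma membrane, abundant in endothelium, fat, muscle and the flat cells of lung alveoli. CAV1 inserts into the inner leaflet as oligomers, binds cholesterol and takes up CAV2 into the same oligomers. The cavins form a coat around this scaffold, in which CAVIN1 is indispensable, and EHD2, an ATPase, sits at the neck of the pit and holds it at the surface. The flotillins form oligomers of FLOT1 and FLOT2 in membrane patches of their own, outside caveolae, and take part in endocytosis and signaling. As both structures depend on membrane cholesterol, the question was how mRNA levels of their building blocks differed after CD.

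In CD the mRNAs of the scaffold proteins CAV1 and FLOT1 rose 2.28-fold and 2.01-fold, and that of the coat protein CAVIN1 fell to 0.408 of its control level. CAV2 and CAVIN3 also rose, EHD2 and FLOT2 fell, and CAVIN2 did not pass the test. Levels are given as CPM (from edgeR), that is, reads of a gene relative to all reads on genes, after TMM scaling. CD and control were compared with the quasi-likelihood test of edgeR over all 12148 genes with enough reads, and genes with an FDR under 0.05 after Benjamini-Hochberg adjustment were called. Of the 8 genes 4 were called higher and 3 lower. Among all tested genes 24.8% were called higher and 22.9% lower, so calls in either direction were common in these libraries. For 6 of the 8 genes the CD and control libraries did not overlap in CPM, against 58.0% of all tested genes. Changes of the 8 genes spanned log2 values from -1.29 to 1.19, around a median of 0.34, where the median of all tested genes was 0.06 and their median absolute change 0.47.

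**Figure D1:**
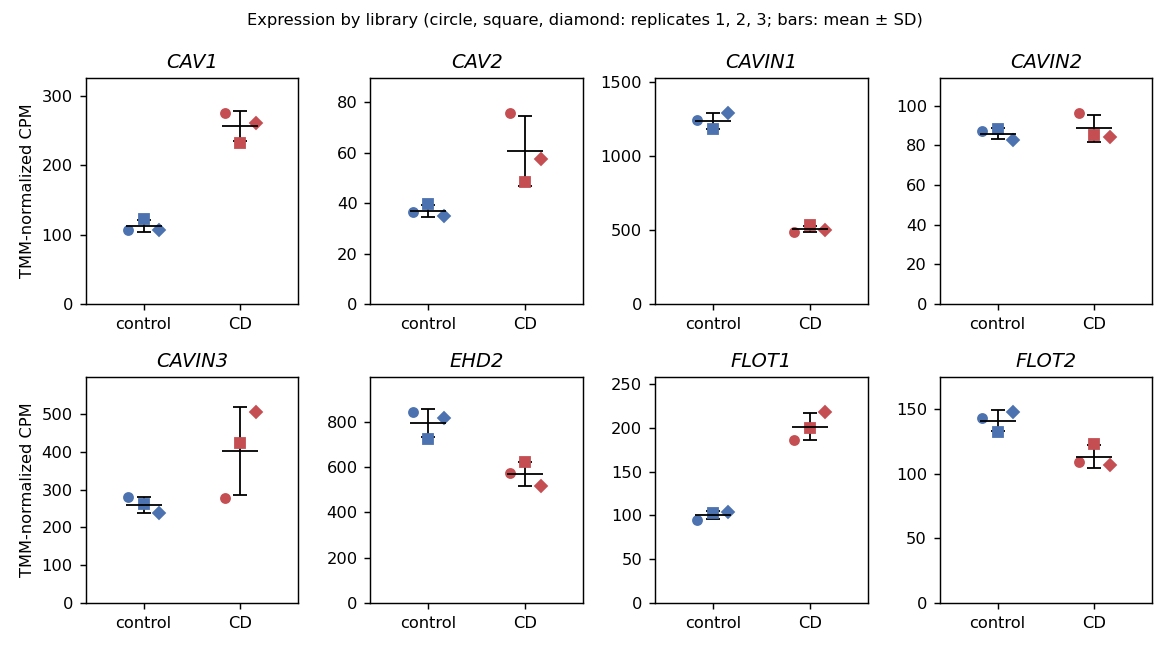
Normalized expression (CPM after TMM scaling, y axis from 0, own scale per gene) of the 8 genes in each control (blue) and CD (red) library, with mean ± SD. CAV1, CAV2 and FLOT1 lie higher in every CD library, CAVIN1, EHD2 and FLOT2 lie lower in every CD library, and the groups overlap for CAVIN2 and CAVIN3.

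Reads on genes numbered from 13473820 to 18633764 per library. Each of the 8 genes had at least 1690 reads over the control and 2821 over the CD libraries. Among control libraries the 8 genes varied little, with a coefficient of variation from 3.50% to 8.26%. In CD it lay between 4.34% and 9.24% for 6 of them but was 23.0% for CAV2 and 28.7% for CAVIN3. Over all tested genes the median was 8.80% in control and 17.0% in CD. CD libraries stood apart from each other on the second principal component (12.3% of the variance), with scores of -30.8, -7.58 and 37.2 for replicates 1, 2 and 3. The treatment was visible in HMGCS1, an enzyme of the mevalonate pathway, whose level of 130 ± 15.6 CPM in control compared with 1404 ± 239 CPM in CD (SD, n = 3 each), and 3 of 4 tested genes of sterol supply were called higher.

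The label of the cells was checked against marker genes. The listed markers KRT8, KRT18, HOPX, PDPN, SFTPA1, ADIPOQ and CD3E were not found by symbol in the count table. The sums of their lists therefore leave them out. KRT19, a keratin of simple epithelia, was abundant (936 ± 66.9 CPM in control, 458 ± 77.1 CPM in CD; SD, n = 3 each). The epithelial junction gene CDH1 had 8 control and 18 CD reads over the 3 libraries of each group, and EPCAM had 7 and 2, so these defining markers were near 0. Of 7 epithelial markers 3 were tested, 1 higher and 1 lower, with sums of 884 to 1012 CPM in control and 386 to 541 CPM in CD, nearly all from KRT19. CLDN4, a claudin of tight junctions, went the other way, from 27 to 326 reads (log2 fold change 3.55, edgeR FDR 9.61e-06), and ESRP1, an epithelial splicing factor, had 20 and 49 reads and was not called. SFTPC and SFTPB, of alveolar type 2 cells, and AQP5, of alveolar type 1 cells, had no reads. Type 1 markers summed to 7.16 to 8.82 CPM in control and 3.38 to 4.42 CPM in CD, and type 2 markers to 63.2 to 82.0 CPM and 88.1 to 134 CPM, nearly all from ABCA3, a lipid transporter, as LAMP3 had only 2 and 1 reads. Endothelium, rich in caveolae, was represented by a list of 6 markers of which 2 were tested, VWF higher (5 and 56 reads) and TEK lower. Its summed level was 206 to 221 CPM in control and 75.9 to 124 CPM in CD, nearly all from TEK, while PECAM1 had 0 and 11 reads, CDH5 0 and 1, and CLDN5 none. Adipocyte markers summed to 26.1 to 29.8 CPM in control and 27.3 to 32.5 CPM in CD, nearly all from CIDEC, and LEP had no reads. Of the 6 fibroblast and smooth muscle markers 4 were tested, 3 of them lower, with sums of 114 to 146 CPM in control and 40.1 to 52.4 CPM in CD, mostly from COL3A1. DES and LUM, too low to be tested, had more reads in CD, 34 against 6 and 35 against 7. CD68, which macrophages express, rose from 251 to 913 reads, whereas PTPRC, present on all white blood cells, had 0 and 1. Summed immune markers were 5.13 to 5.62 CPM in control and 16.9 to 22.4 CPM after CD, nearly all from CD68. The part of these shifts in the results on caveola genes was not tested. In bulk RNA, fewer cells of a type and less RNA per cell cannot be told apart.

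CAV1 (ENSNVIG00000002597), the caveolin without which most cells form no caveolae, was at 107, 123 and 107 CPM in control replicates 1, 2 and 3. In CD replicates 1, 2 and 3 it was at 276, 233 and 260 CPM. Each CD library lay well above the highest control library, and the CD libraries differed little among themselves. The mean rose from 112 ± 8.88 to 256 ± 21.8 CPM (SD, n = 3 each), that is, 2.28-fold (95% interval 1.90 to 2.73). On the log2 scale this is 1.19, with a standard error (SE) of 0.12 and an edgeR FDR of 2.93e-05. This change lay at the percentile 92.1 of all tested genes. CAV1 was called in each of 15 alternative settings, with log2 fold changes from 1.12 to 1.25.

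CAV2 (ENSNVIG00000002622), which joins CAV1 in its oligomers and reaches the surface only with it, was at 36.3, 39.5 and 35.0 CPM in the control libraries. The CD libraries were at 75.8, 48.5 and 57.3 CPM. All lay above the control, but CD replicate 1 stood clearly higher than the others. The log2 fold change was 0.71 (SE 0.17, edgeR FDR 0.00589), or 1.64-fold, and without CD replicate 1 it was 0.53. CAV2 also passed the test in all 15 alternative settings, with an FDR of up to 0.0356.

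Whether CAV1 and CAV2 changed alike was examined with the ratio of their reads within each library, which needs no scaling, but does depend on the lengths of the transcripts, so that only its change is of interest. The ratio CAV1/CAV2 was 2.95, 3.10 and 3.06 in control replicates and 3.63, 4.79 and 4.54 after CD. It was higher in every CD library, by 1.41-fold on average (two-sided exact permutation p = 0.1, adjusted p = 0.125 over 5 pairs). With 3 libraries against 3, a p of 0.1 is the smallest this test can give. CAV1 made up 75.2 ± 0.470% of the reads of both caveolins in control and 81.0 ± 2.30% in CD (SD, n = 3 each). CAV3, the caveolin of muscle, was practically silent, with 1 read in a CD library and 0 in the control.

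CAVIN1 (ENSNVIG00000012584), the coat protein that caveolae cannot form without, showed the opposite change. Its level was 1246, 1187 and 1294 CPM in control replicates, whereas CD replicates had 489, 532 and 501 CPM. The groups were far apart, and within each the libraries were nearly alike. The mean fell from 1242 ± 54.0 to 507 ± 22.0 CPM (SD, n = 3 each). The log2 fold change was -1.29 (SE 0.11, edgeR FDR 1.31e-05), which left 0.408 of the control level (95% interval 0.343 to 0.486). Only 6.38% of tested genes had an equal or lower log2 fold change. All 15 alternative settings called CAVIN1 lower, between -1.36 and -1.25 on the log2 scale.

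CAVIN2 (ENSNVIG00000011218), which promotes membrane curvature in caveolae, was at 87.3, 88.0 and 82.5 CPM in control, and 96.4, 85.3 and 84.2 CPM after CD. The groups overlapped. The log2 fold change was 0.04 (SE 0.11, edgeR FDR 0.763), with a 95% interval of the fold change from 0.869 to 1.22, so a change as large as that of CAVIN1 or CAV1 lay outside the interval. CAVIN3 (ENSNVIG00000001431), a coat protein also known to bind protein kinase C delta, was at 280, 262 and 237 CPM in control. In CD it was at 277, 422 and 505 CPM. CD replicate 1 was within the control range, whereas the other CD libraries lay far above it. CAVIN3 was called higher (log2 fold change 0.63, SE 0.19, edgeR FDR 0.0224), or 1.55-fold. This call was lost without control replicate 2 or 3 or CD replicate 2 (FDR 0.0710, 0.0961 and 0.0877, edgeR), and omitting CD replicate 1 or 3 gave log2 values of 0.85 and 0.40.

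Of the 3 cavins detected, then, CAVIN1 fell, CAVIN3 rose and CAVIN2 had no call. Their summed level was 1588 ± 44.8 CPM in control and 997 ± 119 CPM in CD (SD, n = 3 each). CAVIN1 supplied 77.2%, 77.2% and 80.2% of the cavin reads in control replicates, but 56.7%, 51.2% and 45.9% after CD. The share of CAVIN3 was 16.4 ± 1.45% in control and 39.7 ± 7.15% in CD. Shares of the other cavins rise where CAVIN1 falls, and that of CAVIN2, whose level was not called, was 5.42 ± 0.311% and 9.03 ± 1.87%. CAVIN3 made up 32.1% in CD replicate 1, although its level there lay within the control range. CAVIN4, the cavin of muscle, had no reads in any library.

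EHD2 (ENSNVIG00000011110), the ATPase at the neck of caveolae, also fell, with a smaller estimate than CAVIN1. Its level was 845, 725 and 815 CPM in control and 574, 623 and 517 CPM in CD. No CD library reached the lowest control library. The log2 fold change was -0.48 (SE 0.12, edgeR FDR 0.00950), or 0.719 of the control level. EHD2 was called in 14 of 15 alternative settings. Without control replicate 1 the FDR was 0.0570 (edgeR), with a log2 fold change of -0.43.

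The coat and the neck protein were then set against CAV1. The ratio CAVIN1/CAV1 was 11.6, 9.67 and 12.1 in control replicates and 1.77, 2.29 and 1.92 in CD replicates. Every CD library lay far under every control library, by a factor of 5.58 on average (two-sided exact permutation p = 0.1, adjusted p = 0.125). EHD2/CAV1 was 7.87, 5.91 and 7.60 in control and 2.08, 2.68 and 1.99 in CD, lower by a factor of 3.17 with the same p-values. These were the largest shifts of the 5 ratios compared.

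**Figure D2:**
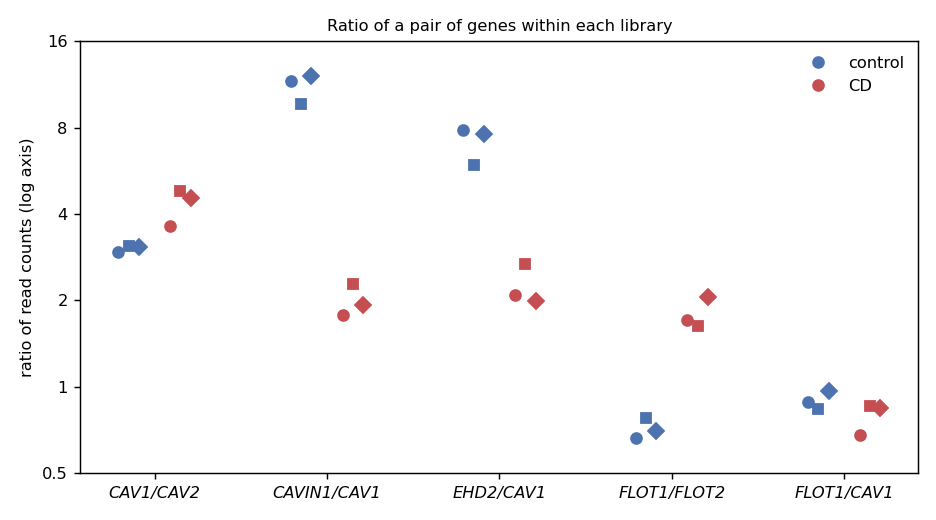
Ratio of the read counts of a pair of genes within each library (y axis, log scale), for control (blue) and CD (red), with replicates 1, 2 and 3 as circle, square and diamond. CAVIN1/CAV1 drops from 9.67 or more to 2.29 or less, FLOT1/FLOT2 crosses from below to above 1, and the groups overlap for FLOT1/CAV1.

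The flotillins were called in opposite directions. FLOT1 (ENSNVIG00000018486) was at 94.9, 103 and 104 CPM in control, against 187, 200 and 218 CPM in CD. The groups were widely separated, with little spread in either. Its mean rose from 100 ± 4.84 to 202 ± 15.9 CPM (SD of 3 libraries in either group). Its log2 fold change was 1.01 (SE 0.11, edgeR FDR 6.15e-05) or 2.01-fold (95% interval 1.69 to 2.38). FLOT1 was called in all 15 alternative settings (log2 fold changes 0.91 to 1.07).

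FLOT2 (ENSNVIG00000016617), the partner of FLOT1 in hetero-oligomers, was at 143, 132 and 148 CPM in control, with 109, 123 and 106 CPM under CD. The groups did not overlap, but they were close. The log2 fold change was -0.32 (SE 0.11, edgeR FDR 0.0374), or 0.801 of the control level (95% interval 0.674 to 0.952). The call of FLOT2 was the least stable of the 8 genes and was lost in 6 of 15 alternative settings, among them the omission of any control library or of CD replicate 1 (FDR 0.0574 to 0.136, edgeR). The ratio FLOT1/FLOT2 was 0.662, 0.777 and 0.701 in control and 1.71, 1.62 and 2.05 in CD. It was 2.51-fold higher in CD, and no CD library was near the control range (two-sided exact permutation p = 0.1, adjusted p = 0.125). FLOT1 was also set against CAV1. Their ratio was 0.884, 0.837 and 0.967 in control and 0.678, 0.859 and 0.839 in CD, with overlapping groups (log2 difference -0.18, two-sided exact permutation p = 0.3, adjusted p = 0.3). Omitting single libraries gave log2 differences from -0.25 to -0.08, and with 3 libraries against 3 this test cannot show whether FLOT1 and CAV1 changed alike.

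**Figure D3:**
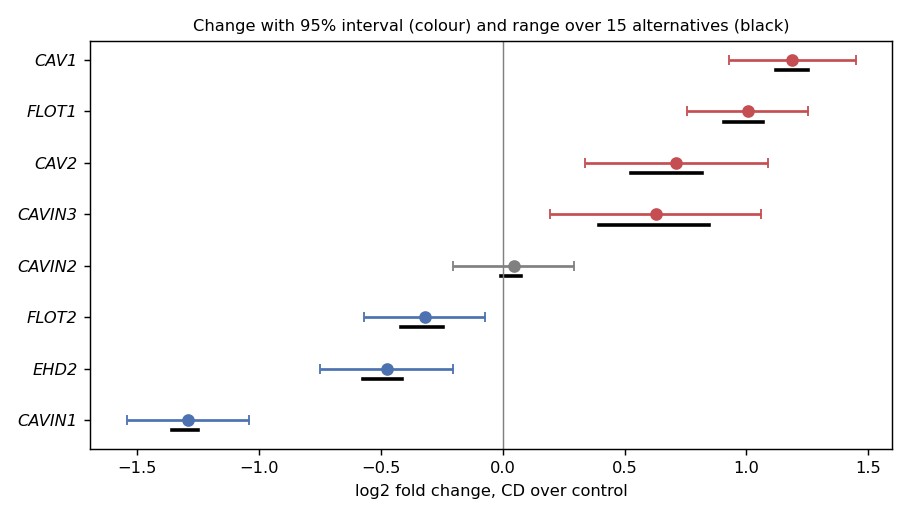
Log2 fold change of CD over control (x axis) for the 8 genes, with the 95% interval of the edgeR fit (colored bar: red higher, blue lower, grey not called) and the range over 15 alternative settings (black bar). The intervals of CAV1, FLOT1 and CAVIN1 lie far from 0, and that of CAVIN2 includes 0.

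Other proteins of caveolae were followed as a list of 10 genes, of which 7 were tested. In CD 1 was higher and 4 lower, and the median log2 fold change was -0.56. The shares to set beside this list and those below are 24.8% higher and 22.9% lower among all tested genes. The number lower was 2 without control replicate 1 or 3, and the number higher was 2 without CD replicate 1. PACSIN3 and PACSIN2 bind curved membranes at caveolae and went in opposite directions. PACSIN3 was at 79.0, 74.6 and 85.6 CPM in control, and 142, 167 and 181 CPM after CD (log2 fold change 1.03, SE 0.13, edgeR FDR 1.11e-04). PACSIN2 fell from 207 ± 9.50 to 141 ± 9.40 CPM (each ± SD of 3 libraries, log2 fold change -0.56, edgeR FDR 0.00189). Both were called in all 15 alternative settings. DNM2, the dynamin that cuts vesicles from the membrane, was at 347 ± 25.9 and 368 ± 38.8 CPM and was not called (edgeR FDR 0.597).

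The paralogs of EHD2, which act on recycling endosomes as well as at caveolae, had estimates in both directions. EHD3 was at 52.3, 49.1 and 56.1 CPM in control, against 33.6, 35.5 and 25.6 CPM in CD. It fell by 0.73 on the log2 scale (SE 0.15, edgeR FDR 0.00261), a call that held in all 15 alternative settings. EHD1 had a log2 fold change of 0.23 (SE 0.13, edgeR FDR 0.151) and was called higher only without CD replicate 1. EHD4 was at 42.8, 45.1 and 41.7 CPM in control, with 33.7, 26.2 and 12.0 CPM under CD, where CD replicate 3 was far under the others. EHD4 was called lower (log2 fold change -0.84, SE 0.29, edgeR FDR 0.0366), but not in 7 of 15 alternative settings. Its log2 fold change was -0.56 when CD replicate 3 was omitted and -1.16 when CD replicate 1 was, the ends of its range over the alternative settings, and it was called in both cases. ROR1, a receptor that scaffolds CAV1 and CAVIN1, was the lowest of the list (log2 fold change -1.09, edgeR FDR 0.0239), with only 45 control and 21 CD reads, and was not called in 4 of the 14 settings in which it was tested.

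Among 7 tested signaling partners of caveolae, 2 were called higher and the other 5 were not called, with a median log2 fold change of 0.25. The number higher was 4 without CD replicate 3 or with library weights, and 1 when replicate 1 or 2 of either group was omitted. FYN, a kinase of the Src family that is anchored in rafts and phosphorylates CAV1, had the highest change of the list. It was at 1.22, 1.37 and 1.43 CPM in control, and 9.22, 9.82 and 9.72 CPM after CD, a log2 fold change of 2.83 (SE 0.20, edgeR FDR 3.74e-06). ABL1, a kinase linked to CAV1 phosphorylation and stress fibers, was called higher with a log2 fold change of 0.46 (edgeR FDR 0.0307), with overlapping groups, and this call was lost in 4 of 15 alternative settings. SRC and YES1, the other kinases of the Src family in the list, had log2 fold changes of 0.29 and 0.16 and were not called.

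The flotillins belong to the SPFH family, named after stomatin, prohibitin, flotillin and HflK/C, whose members gather in cholesterol-rich or cardiolipin-rich membranes. Of 6 tested relatives, 2 were called lower and the other 4 were not called, with a median log2 fold change of -0.27. Both lower genes act in mitochondria. STOML2 was at 165, 167 and 171 CPM in control, against 70.1, 85.8 and 93.8 CPM in CD (log2 fold change -1.01, SE 0.13, edgeR FDR 1.41e-04). PHB2, a prohibitin, fell from 381 ± 18.0 to 216 ± 17.7 CPM (each ± SD of 3 libraries, log2 fold change -0.82, edgeR FDR 2.26e-04). STOM, the stomatin of the plasma membrane, was at 295 ± 19.8 and 297 ± 8.32 CPM with a log2 fold change of 0.01 (SE 0.11, edgeR FDR 0.946).

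Partners of the flotillins were represented by 4 tested genes, of which 2 were higher. SORBS2, an adaptor whose sorbin homology domain binds flotillin, was among them. It was at 28.4, 28.5 and 23.8 CPM in control, with 55.8, 50.4 and 53.7 CPM under CD (log2 fold change 0.99, SE 0.13, edgeR FDR 1.84e-04). SORBS2 was called in all 15 alternative settings. Of the MAL and MARVEL proteins, membrane proteins of rafts and junctions, 2 were higher and 2 lower of 4 tested. One of the higher genes, MARVELD2 of tricellular junctions, had only 26 and 55 reads (log2 fold change 1.05, edgeR FDR 0.0204), and the number higher was 1 with DESeq2, with a minimum of 50 counts, without control replicate 1 or 3 and without CD replicate 1. MYADM, a raft protein, was the highest (log2 fold change 1.17, edgeR FDR 2.13e-04), and MARVELD1 the lowest (-1.74, edgeR FDR 2.50e-05).

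Clathrin-coated pits, the other main coat of the plasma membrane, were examined for comparison with 19 tested genes. In CD 4 were higher and 4 lower, and 11 were not called, whereas 7 were higher without CD replicate 3. The median log2 fold change was 0.09. The light and heavy chains CLTA, CLTB and CLTC were not called, with log2 fold changes of -0.06, 0.15 and -0.13. DAB2, an adaptor that sorts cargo into clathrin-coated pits, was the lowest of the list. It was at 43.8, 39.6 and 35.3 CPM in control, and 7.62, 7.55 and 5.91 CPM after CD, a log2 fold change of -2.49 (SE 0.17, edgeR FDR 2.70e-06). The highest was DNM1, the dynamin of neurons (log2 fold change 1.71, edgeR FDR 0.00208), with 24 control and 81 CD reads.

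**Figure D4:**
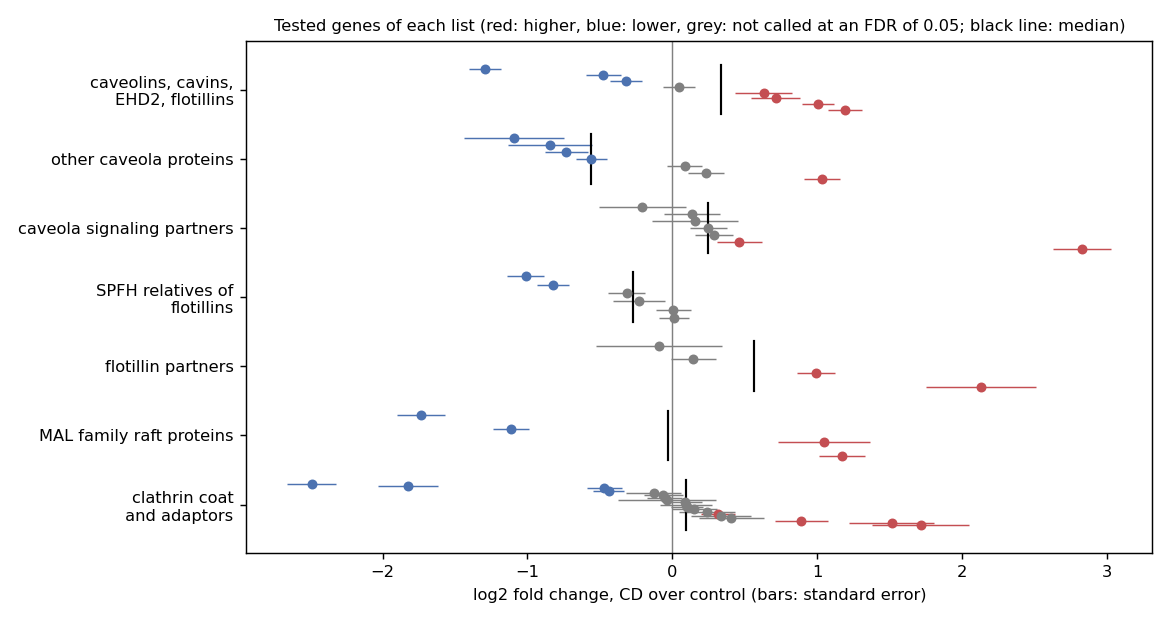
Log2 fold change of CD over control (x axis) of each tested gene by list (rows; marker and treatment lists not drawn), with its standard error. Red points were called higher, blue lower and grey not called at an FDR under 0.05, and black lines are medians. Of the genes drawn, FYN (2.83) and DAB2 (-2.49) lie farthest from 0 on either side, and caveola genes lie on both sides.

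The genes beside each of the 8 genes in the mink annotation of RefSeq (assembly ASM_NN_V1, used for names and order only) were also read. CAV1 and CAV2 are neighbors, and both rose. Outside the 8 genes, 14 neighbors were named, of which 9 were tested, with 4 higher, 1 lower and 4 not called. Among all tested genes 24.8% were higher and 22.9% lower. TES, a LIM protein of focal adhesions beside CAV2, rose from 8.18 ± 0.647 to 13.5 ± 2.54 CPM (each ± SD of 3 libraries, log2 fold change 0.73, edgeR FDR 0.0101), beside 0.71 for CAV2. STAT3, a transcription factor beside CAVIN1, was called higher (log2 fold change 0.63, edgeR FDR 0.0303), with overlapping groups. SMPD1, the acid sphingomyelinase beside CAVIN3, was higher by a log2 value of 0.33 (edgeR FDR 0.0406). TMEFF2 beside CAVIN2, which itself was not called, was higher (log2 fold change 1.83, edgeR FDR 0.00427). DHRS13 beside FLOT2 was the only lower neighbor (log2 fold change -1.20, edgeR FDR 0.00934). NABP1 beside CAVIN2, NOP53 and BICRA beside EHD2, and ERAL1 beside FLOT2 were not called.

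Genes with a pattern like that of CAV1 and FLOT1 were sought by the root mean square difference of log2 CPM over the 6 libraries, each gene centered on its mean. For CAV1 the closest of 12147 genes were RND3 (0.0318), CFLAR, an inhibitor of caspase-8 (0.0375), and PPP2R5A, a subunit of protein phosphatase 2A (0.0496), with log2 fold changes of 1.21, 1.19 and 1.23. Among the other 7 genes, FLOT1 came closest to CAV1 (0.155, rank 167), ahead of CAV2 (0.279, rank 1071). CAVIN1 was at rank 11268. For FLOT1 the closest genes were CHMP4B, a subunit of ESCRT-III (0.0441), SLC44A4 (0.0487) and GDF9 (0.0506). As all 6 libraries enter and they fall into the 2 groups, this likeness depends on the size of the change in CD.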

How the data were processed

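The authors deposited raw read counts per gene for 6 libraries, and their methods name fastp 0.20.1 for trimming, STAR 2.7.2a for alignment to the mink assembly NNQGG.v01 and DESeq2 1.30.1 in R 4.0.3 for normalization and comparison. The counting program, its strand setting and its annotation are not given in the sources used here, so reads of overlapping or antisense genes cannot be told apart. Poly(A) mRNA was sequenced after PCR amplification, and no molecular identifiers are mentioned. The deposited normalized files were not used, because the gene identifiers beside their values do not match those of the count table. The 4 rows of read totals, which held 29.3% to 47.2% of reads, were left out.

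Here, counts were fitted with edgeR 4.0.16 in R 4.3.3 (filterByExpr with minimum count 10 and total 15, TMM, robust glmQLFit, glmQLFTest, condition as the only term). The standard error was the log2 fold change divided by the square root of F. The script was tested on simulated data. Alternatives were DESeq2 1.42.0, voom of limma 3.58.1 without and with library weights, other scalings and filters, a replicate block and each library left out. An FDR of 0.01 was applied to counts of genes. Ratios within a library were compared by exact permutation tests. The genes and lists were written from general knowledge, with earlier results of these data known. Named were the 8 genes, their paralogs and neighbors, the called genes with the highest and lowest change of each list, and the 3 closest patterns, apart from items that are not reported here. PACSIN2, DNM2, SRC, YES1, STOM, MARVELD2, clathrin chains and markers were named after their values were seen. No sequences or transcript lengths of mink were used here. Identifiers are those of the count table.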

Additional observations from a re-analysis of the deposited data

How the results depend on the processing

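CAV1, CAV2, CAVIN1 and FLOT1 kept their direction and call in all 15 alternative settings. FLOT2 was not called without the filter on low counts (log2 fold change -0.32, edgeR FDR 0.0526) or with the replicate number as a block (-0.32, edgeR FDR 0.101). When single libraries were omitted, log2 fold changes ranged from -0.42 to -0.29 for FLOT2, from -0.57 to -0.43 for EHD2, from 0.40 to 0.85 for CAVIN3 and from -0.0092 to 0.058 for CAVIN2, whose sign turned without CD replicate 1 (edgeR FDR 0.951). The cause of these losses was not tested. Under these omissions the number of the 8 genes called lower ranged from 1 to 3, with 1 (CAVIN1) without control replicate 1, and the number called higher from 3 to 4. Over all genes, omitting control replicate 1 left 2265 higher and 2214 lower, against 3016 and 2784 in the main fit. At an FDR of 0.01, 2006 of all genes were higher instead of 3016, and 2036 were lower instead of 2784. Of the 8 genes 3 were then higher and 2 lower. Libraries of the same replicate number did not deviate together from their group means (correlations across genes of -0.024, -0.33 and -0.18). The number is therefore taken as a name. Among unlike numbers the highest were 0.26 (control replicate 3 with CD replicate 2) and 0.21 (control replicate 2 with CD replicate 3). Deviations within a group cancel out, so these values are not independent and cannot show that the libraries are unpaired. The replicate block moved the 8 genes from 3 lower to 2 and left 4 higher. The median change of all genes stayed between 0.02 and 0.09 under every setting. The ratios kept their direction with a pseudocount of 1 and with any library omitted. Low genes such as ROR1 and DNM1 rest on few reads.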
